A study of Mus musculus with 8 samples.

Results

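A set of 39 genes, of 24421 gene symbols counted, had RNA levels in both Ikzf2 knockout (KO) libraries well above those in both wild-type (WT) libraries. The genes were chosen by their measured values. Each count was scaled by its library's total gene count (CPM, a gene's count for each 1000000 gene counts of the library). The lower KO value had to reach 5 CPM and 3 times the higher WT value, and the KO values had to lie within 4-fold of each other. Those limits were passed by 50 genes, which is 0.205% of all symbols. A further 12 genes were named for omission (Mpo, Elane, Wfdc21, Prom1, Pag1, Ifitm3, F13a1, Id2, Bcl11a, Mgst2, Vcam1 and Trem1), and 11 of them passed the limits, all but Id2. Since KO and WT levels chose the set, the higher KO levels below are descriptions without tests. With WT and KO exchanged, the same limits were passed by 47 genes.

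RNA-seq was run on leukemic mouse bone marrow cells transformed with MLL-AF9, a fusion oncogene of acute leukemia, in the strain C57BL/6. The WT libraries came from Ikzf2f/f mice, whose gene carries recombination sites but is intact, and the KO libraries from Ikzf2Δ/Δ mice, with 2 libraries in each group. All cells had been frozen, thawed and sorted for high c-KIT, the stem cell factor receptor that marks immature blood cells. The labels do not give which exons were deleted, what drove the deletion or whether replicates were separate mice. Any p-value thus measures only the spread between these libraries. In WT that spread may be technical, and in KO the libraries differed in sex-linked RNA, as given below. The question behind the comparison was which genes differ once these leukemic cells lack Ikzf2.

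Helios, the product of Ikzf2, belongs to the Ikaros family of zinc finger transcription factors, which bind DNA and recruit chromatin-modifying complexes that can repress or support transcription. MLL-AF9 holds blood progenitors in an immature, self-renewing state. Maturing granulocytes fill their granules in waves, from peroxidase and serine proteases in early cells to antimicrobial peptides and lactoferrin in later ones, and acquire receptors for microbial products along the way.

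Gene counts came to between 16006081 and 19286090 per library. Values below are given for replicate 1 and then replicate 2 of each group. Ikzf2 stood at 294 and 273 CPM in WT, against 11.0 and 25.03 CPM in KO, and Kit, which encodes c-KIT, at 223 and 332 CPM in WT, against 239 and 356 CPM in KO. The libraries were not matched in every other respect. KO replicate 1 had 841 CPM of Xist, the X-inactivation RNA, against 0.33 to 0.62 CPM in the other 3, and 0.062 CPM of the Y-linked Ddx3y against 66.3 to 114 CPM. It thus had the sex-linked RNA of female cells and the other 3 that of male cells, so the KO libraries did not come from 1 animal. Dendritic and antigen presentation markers summed to 2095 CPM in KO replicate 1 and to 377 to 583 CPM elsewhere. Immediate early and heat shock genes summed to 13170 CPM in KO replicate 2 and to 2453 to 5554 CPM elsewhere. Their part in the levels below was not tested.

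The 39 genes together held 0.0883% (replicate 1) and 0.347% (replicate 2) of the WT gene counts, and 1.82% and 1.84% of the KO gene counts. The WT libraries thus differed more in this sum than the KO libraries did, but the selection limited the spread of the KO values only. Chil3 alone supplied a large part, and without it the sums were 549 and 1688 CPM in WT, against 9708 and 8589 CPM in KO. In bulk samples, more cells of a type and more RNA per cell cannot be told apart. All 39 genes passed the filter on low counts, which each could do through the KO libraries alone.

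**Figure D1:**
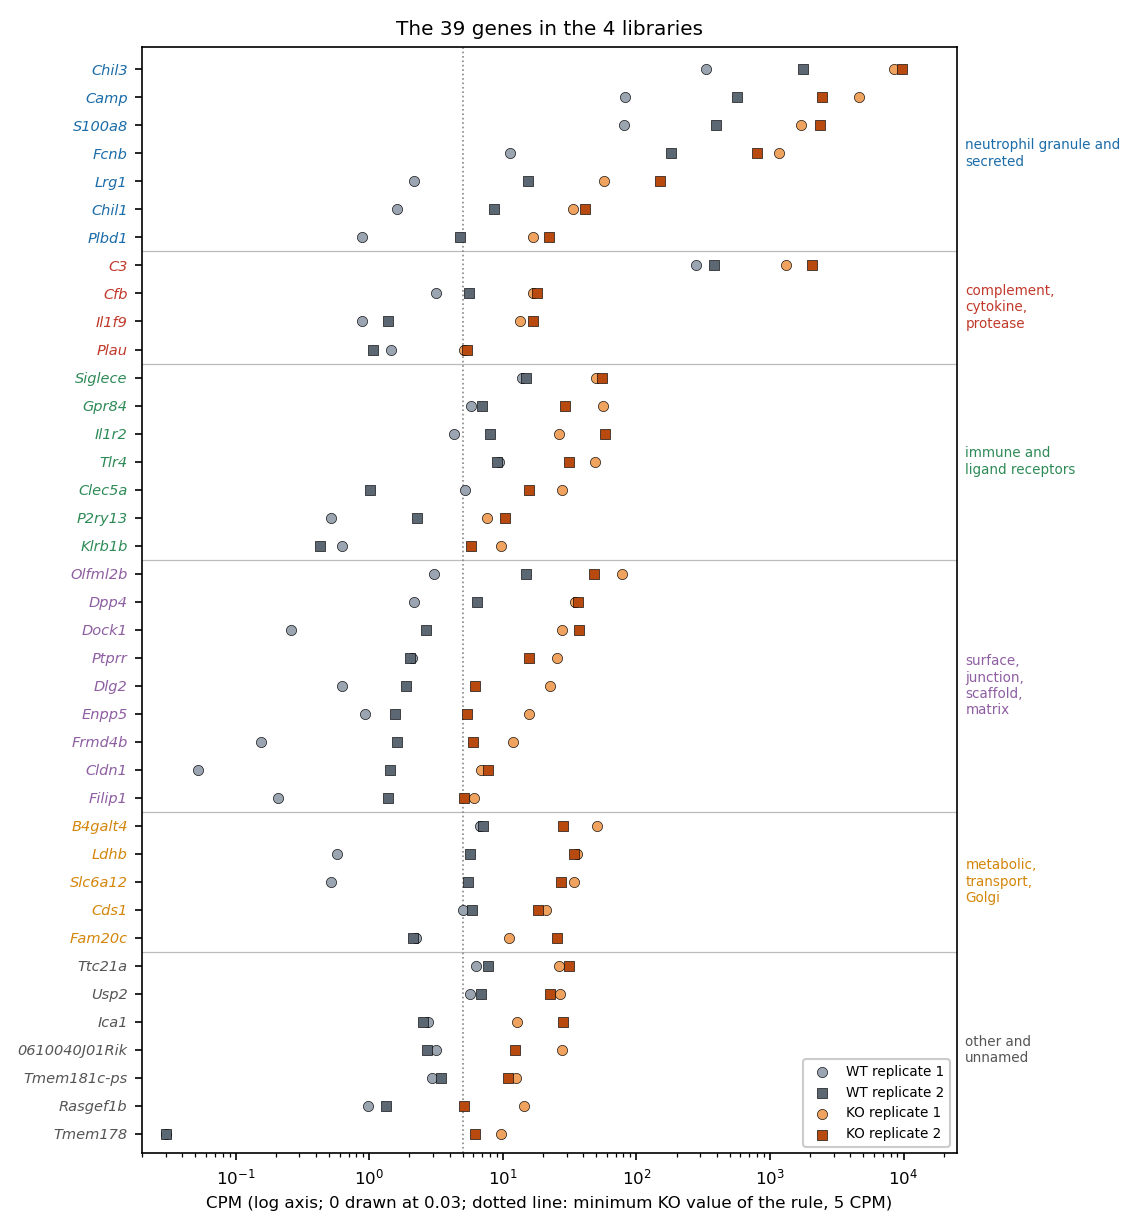
RNA level of the 39 genes in CPM (logarithmic axis), 1 point per library, with genes grouped by the role of their product. The KO points lie to the right of both WT points for each gene, as the selection required, while the distance between the WT points varies from gene to gene.

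Stretches of 250 bases upstream of the transcription start are shown for 5 of the genes, chosen from the neutrophil and complement genes because their windows hold words that Ikaros family, C/EBP, PU.1 or TATA-binding factors can recognise. They are RefSeq sequence of GRCm38.p6, read 5′ to 3′ in the direction of the gene, and end on the base before the start that the RefSeq promoter table gives. For Fcnb that start lies 32 bases inside the gene's RefSeq span, and for the other 4 it is at the edge of the span. Capitals mark a searched word on either strand. The stretches lie at chr3:106167565-106167814, minus strand, at chr17:56121947-56122196, minus strand, at chr3:90668821-90669070, plus strand, at chr2:28084879-28085128, minus strand and at chr17:57228137-57228386, minus strand, in the order shown.
Chil3: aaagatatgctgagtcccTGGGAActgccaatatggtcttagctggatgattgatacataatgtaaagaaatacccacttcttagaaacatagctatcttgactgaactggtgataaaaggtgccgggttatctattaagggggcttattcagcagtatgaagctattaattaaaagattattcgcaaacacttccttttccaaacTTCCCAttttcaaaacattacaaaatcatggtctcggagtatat
Lrg1: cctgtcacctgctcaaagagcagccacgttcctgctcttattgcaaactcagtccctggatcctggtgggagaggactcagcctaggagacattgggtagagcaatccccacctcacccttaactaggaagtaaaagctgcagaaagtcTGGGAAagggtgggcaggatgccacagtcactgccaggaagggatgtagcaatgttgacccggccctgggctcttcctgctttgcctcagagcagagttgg
S100a8: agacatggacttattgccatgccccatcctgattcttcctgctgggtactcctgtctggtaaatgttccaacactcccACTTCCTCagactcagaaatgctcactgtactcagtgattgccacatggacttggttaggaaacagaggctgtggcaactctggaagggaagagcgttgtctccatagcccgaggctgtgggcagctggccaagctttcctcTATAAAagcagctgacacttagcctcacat
Fcnb: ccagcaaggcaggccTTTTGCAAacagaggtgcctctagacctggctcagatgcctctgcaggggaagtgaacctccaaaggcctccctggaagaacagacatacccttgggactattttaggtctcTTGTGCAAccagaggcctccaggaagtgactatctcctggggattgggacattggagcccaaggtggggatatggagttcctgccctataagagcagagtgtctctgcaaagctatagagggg
C3: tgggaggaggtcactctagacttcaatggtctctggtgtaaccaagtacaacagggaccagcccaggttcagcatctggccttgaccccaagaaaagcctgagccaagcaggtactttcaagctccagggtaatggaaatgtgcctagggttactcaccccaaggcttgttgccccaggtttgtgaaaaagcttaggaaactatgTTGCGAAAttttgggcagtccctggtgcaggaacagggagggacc

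In the Chil3 stretch the capitals are the Ikaros family word TGGGAA, first on the gene's own strand and then, nearer the start, on the opposite strand. Lrg1 holds TGGGAA once. S100a8 holds GAGGAAGT, a PU.1 word, on the opposite strand, and the TATA box word TATAAA beginning 30 bases before the start. Fcnb has the C/EBP word TTGCNNAA at 2 places on the opposite strand, and C3 has it once on its own strand. A match is a description of the letters and not evidence of binding.

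The granule and secreted proteins of neutrophils had 7 genes: Chil3, Camp, Fcnb, S100a8, Lrg1, Chil1 and Plbd1. Their CPM summed to 514 and 2953 in WT replicates 1 and 2 and to 16152 and 15668 in KO replicates 1 and 2. In each of the 7, WT replicate 2 was at least 3 times WT replicate 1, so the size of the KO excess depended on which WT library it was set against. The ratio of mean KO to mean WT CPM ran from 6.88 to 11.8 across them.

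Chil3 (chr3:106147554-106167564, GRCm38.p6) encodes Ym1, a chitinase-like lectin secreted by myeloid cells. It stood at 334 and 1779 CPM in WT, against 8533 and 9809 CPM in KO. Both KO libraries were high and close to each other, and WT replicate 2 lay between them and WT replicate 1. The means were 9171 ± 903 CPM in KO and 1057 ± 1022 CPM in WT (SD, n = 2), and edgeR gave a log2 fold change of 3.17 (SE 0.84). Its near-identical neighbour Chil4 had 0 and 0.267 CPM in WT, against 1.94 and 1.44 CPM in KO, and because counting could split reads between the copies, the Chil3 level is uncertain to that extent.

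Camp (chr9:109847377-109849456) encodes the precursor of the antimicrobial peptide cathelicidin, stored in secondary granules. Its level was 82.7 and 571 CPM in WT, against 4646 and 2463 CPM in KO. KO replicate 1 was the highest library and WT replicate 1 the lowest, and the ratio of KO to WT was 56.2 between the libraries numbered 1 and 4.31 between those numbered 2. Fcnb (chr2:28076479-28084910) encodes ficolin B, a lectin of the complement pathway made by immature myeloid cells. It measured 11.4 and 182 CPM in WT, against 1169.8 and 799.6 CPM in KO. As a ratio, its WT libraries were farther apart (15.9-fold) than its KO libraries (1.46-fold). Log2 fold changes were 3.48 (SE 0.99) for Camp and 3.39 (SE 1.26) for Fcnb.

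S100a8 (chr3:90669071-90670034) encodes a calcium-binding subunit of calprotectin, an abundant protein of the neutrophil cytosol. It was found at 81.1 and 392.3 CPM in WT, against 1697 and 2383 CPM in KO, which put KO replicate 2 highest and gave a log2 fold change of 3.17 (SE 0.82). S100a9, which encodes the partner subunit, had 114 and 726 CPM in WT, against 2078 and 3121 CPM in KO. It missed the set because its lower KO value was 2.86 times its higher WT value. The 2 subunit genes thus had the same order of libraries and lay on either side of the limit.

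Lrg1 (chr17:56119678-56121946) encodes a leucine-rich glycoprotein of granules and plasma. Its values were 2.18 and 15.3 CPM in WT, against 57.2 and 149 CPM in KO, and the KO libraries were more than 2-fold apart. Chil1, which encodes another chitinase-like glycoprotein, showed 1.61 and 8.55 CPM in WT, against 33.7 and 41.3 CPM in KO. Plbd1, a phospholipase B-like protein of granules, had 0.881 and 4.81 CPM in WT, against 16.8 and 22.4 CPM in KO. All 3 shared the order in which WT replicate 1 was lowest and KO replicate 2 highest.

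Complement, cytokine and protease genes numbered 4, and in each the WT libraries were closer together than 3-fold and KO replicate 2 was the higher KO library. C3 (chr17:57203967-57228136) encodes the central complement component. It stood at 277 and 378 CPM in WT, against 1314 and 2065 CPM in KO, with means of 1689 ± 531 CPM in KO and 328 ± 71.4 CPM in WT (SD, n = 2) and a log2 fold change of 2.44 (SE 0.36). Cfb, which encodes factor B of the alternative complement pathway, had 3.16 and 5.61 CPM in WT, against 16.9 and 18.0 CPM in KO, and it lay nearest to the 3-fold limit of all members. Il1f9, which encodes the cytokine IL-36γ, had 0.881 and 1.39 CPM in WT, against 13.5 and 16.9 CPM in KO, and the log2 fold change was 3.80 (SE 0.51). Plau, which encodes the urokinase plasminogen activator, had 1.45 and 1.07 CPM in WT, against 5.12 and 5.38 CPM in KO. That the groups lay farther apart in CPM than the WT libraries follows from the selection, and it holds for every member.

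Other components of the complement system did not all share this pattern. Cfp, which encodes properdin, the stabiliser of the alternative pathway convertase, had 466 and 497 CPM in WT, against 375 and 188 CPM in KO, so both KO libraries were below both WT libraries. C4b, of the classical and lectin pathways, had 0.415 and 0.641 CPM in WT, against 10.7 and 2.72 CPM in KO, and its lower KO value was under 5 CPM. C2, of the same pathways, was very low in every library. It had 0.259 and 0.748 CPM in WT, against 0.187 and 0.0555 CPM in KO. These genes were looked up after the members were known.

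The receptor genes numbered 7: Tlr4, Clec5a, Siglece, Klrb1b, Gpr84, P2ry13 and Il1r2. Tlr4 (chr4:66827551-66846581) encodes the receptor for bacterial lipopolysaccharide. It stood at 9.44 and 9.03 CPM in WT, against 48.8 and 31.2 CPM in KO, and edgeR's log2 fold change was 2.17 (SE 0.31). The WT libraries were nearly equal and the KO libraries differed by less than 2-fold. Its co-receptor genes differed from it: Ly96, which encodes MD-2, had 1.92 and 2.14 CPM in WT, against 1.31 and 0.666 CPM in KO, and Cd14 had 5.34 and 36.9 CPM in WT, against 63.0 and 53.2 CPM in KO. Thus Ly96 was not higher in KO, and the Cd14 level in WT replicate 2 came within 2-fold of both KO libraries.

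Siglece encodes a sialic acid-binding inhibitory receptor of myeloid cells. It showed 14.0 and 15.0 CPM in WT, against 50.04 and 55.1 CPM in KO, so each group's libraries were within 1.5-fold, with a log2 fold change of 1.93 (SE 0.24). Klrb1b encodes a C-type lectin-like receptor known from natural killer cells. Its level was 0.622 and 0.428 CPM in WT, against 9.68 and 5.83 CPM in KO, with a log2 fold change of 3.92 (SE 0.62). The T and NK cell marker list summed to 17.9 and 11.3 CPM in WT, against 11.3 and 9.27 CPM in KO. Thy1 alone had 10.3 and 1.76 CPM in WT, against 0.312 and 0.167 CPM in KO. Of the list's 5 tested genes, 3 had a log2 fold change above 0, with a median of 0.26 over the 5. Cd8a, Cd8b1 and Ncr1 in it were at 0 in every library. The part of such cells in the Klrb1b level was not tested.

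Gpr84 encodes a receptor for medium-chain fatty acids on myeloid cells. It had 5.81 and 7.0 CPM in WT, against 56.3 and 29.4 CPM in KO. Il1r2 encodes the decoy receptor that binds interleukin-1 without signalling. It had 4.30 and 8.02 CPM in WT, against 26.5 and 58.2 CPM in KO. In Gpr84 the higher KO library was replicate 1 and in Il1r2 it was replicate 2, so the receptors did not share 1 order of the KO libraries.

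P2ry13, a receptor for ADP, stood at 0.519 and 2.3 CPM in WT, against 7.56 and 10.4 CPM in KO. Clec5a, a C-type lectin that activates myeloid cells through an adaptor, stood at 5.19 and 1.02 CPM in WT, against 27.6 and 15.8 CPM in KO. Clec5a was the 1 member whose WT replicate 1 was at least 3 times WT replicate 2. P2ry13 overlaps Med12l, which had 5.13 and 25.7 CPM in WT, against 8.06 and 63.7 CPM in KO. As the strand setting of the counting is not given, reads of the 2 genes may not have been told apart.

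Surface, junction, scaffold and matrix genes made up 9 members: Dpp4, Enpp5, Ptprr, Cldn1, Dlg2, Dock1, Frmd4b, Filip1 and Olfml2b. They summed to 9.54 and 33.9 CPM in WT, against 229 and 169 CPM in KO. Dock1 encodes an activator of the small GTPase Rac in cell movement and engulfment. It stood at 0.259 and 2.67 CPM in WT, against 27.9 and 37.5 CPM in KO. With 5 counts in WT replicate 1 and 446 in KO replicate 1, its mean KO level was 22.3 times its mean WT level and its log2 fold change was 4.54 (SE 1.05). Ptprr encodes a tyrosine phosphatase that acts on MAP kinases. It had 2.07 and 2.03 CPM in WT, against 25.7 and 15.8 CPM in KO. The WT libraries were nearly equal, with a log2 fold change of 3.39 (SE 0.43).

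Dpp4 (CD26), a surface peptidase that trims chemokines, had 2.18 and 6.36 CPM in WT, against 34.7 and 36.6 CPM in KO. Olfml2b, a secreted matrix protein of the olfactomedin family, had 3.06 and 15.0 CPM in WT, against 77.8 and 48.5 CPM in KO. Cldn1, a tight junction protein, had 0.0519 and 1.44 CPM in WT, against 6.87 and 7.77 CPM in KO. In these 3 genes the WT libraries differed by more than 2-fold and the KO libraries by less than 2-fold.

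Dlg2, a scaffold protein of synapses and junctions, had 0.622 and 1.87 CPM in WT, against 22.6 and 6.16 CPM in KO. Enpp5, a membrane protein of the phosphodiesterase family, had 0.933 and 1.55 CPM in WT, against 15.8 and 5.38 CPM in KO. Frmd4b, a scaffold protein with a FERM domain, had 0.156 and 1.60 CPM in WT, against 11.9 and 5.94 CPM in KO. Their higher KO library was replicate 1 throughout, and Dlg2 was the member with KO libraries closest to the 4-fold limit among these 3. Filip1, an interactor of the actin crosslinker filamin A, was low in each library, at 0.207 and 1.39 CPM in WT, against 6.06 and 5.11 CPM in KO.

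The metabolic, transport and Golgi group had 5 genes. Ldhb encodes the B subunit of lactate dehydrogenase. It stood at 0.570 and 5.66 CPM in WT, against 36.0 and 34.4 CPM in KO, so the KO libraries were close together and WT replicate 1 was far below WT replicate 2, and its log2 fold change was 3.55 (SE 1.03). Slc6a12, a transporter of betaine and GABA, had 0.519 and 5.50 CPM in WT, against 34.1 and 27.3 CPM in KO, with the same order of the WT libraries. B4galt4, a Golgi galactosyltransferase, had 6.79 and 7.16 CPM in WT, against 50.4 and 28.3 CPM in KO. Fam20c, the Golgi kinase of secreted proteins, had 2.23 and 2.14 CPM in WT, against 11.1 and 25.6 CPM in KO, and it was the 1 gene of the 5 that was higher in KO replicate 2 than in KO replicate 1. Cds1, which makes the phospholipid precursor CDP-diacylglycerol, had 5.03 and 5.88 CPM in WT, against 21.0 and 18.4 CPM in KO.

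Of the 7 remaining members, Tmem178 had 0 counts in both WT libraries, and 155 and 112 counts in KO replicates 1 and 2 (9.68 and 6.22 CPM). It encodes a membrane protein of the endoplasmic reticulum. Set against a floor of 3 counts per WT library, its lower KO level was at least 38.8-fold higher. Its fitted log2 fold change is no bound and depends on the prior count.

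Ttc21a, a tetratricopeptide repeat protein, had 6.33 and 7.75 CPM in WT, against 26.4 and 31.1 CPM in KO. Usp2, a ubiquitin protease, had 5.70 and 6.89 CPM in WT, against 26.9 and 22.7 CPM in KO. Ica1, a protein of secretory vesicles, had 2.75 and 2.51 CPM in WT, against 12.7 and 28.4 CPM in KO. Among these 3, Ica1 was the one whose KO libraries were more than 2-fold apart. Rasgef1b, an exchange factor of small GTPases, had 0.985 and 1.34 CPM in WT, against 14.5 and 5.16 CPM in KO.

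The unnamed gene 0610040J01Rik had 3.16 and 2.73 CPM in WT, against 27.7 and 12.3 CPM in KO. It overlaps Rell1, which had 61.5 and 32.1 CPM in WT, against 32.7 and 60.2 CPM in KO, and did not share its order of libraries. The pseudogene Tmem181c-ps had 2.96 and 3.47 CPM in WT, against 12.5 and 11.0 CPM in KO, and its relative Tmem181a had 34.6 and 28.6 CPM in WT, against 36.6 and 22.7 CPM in KO. Reads shared between those copies make the Tmem181c-ps level uncertain.

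**Figure D2:**
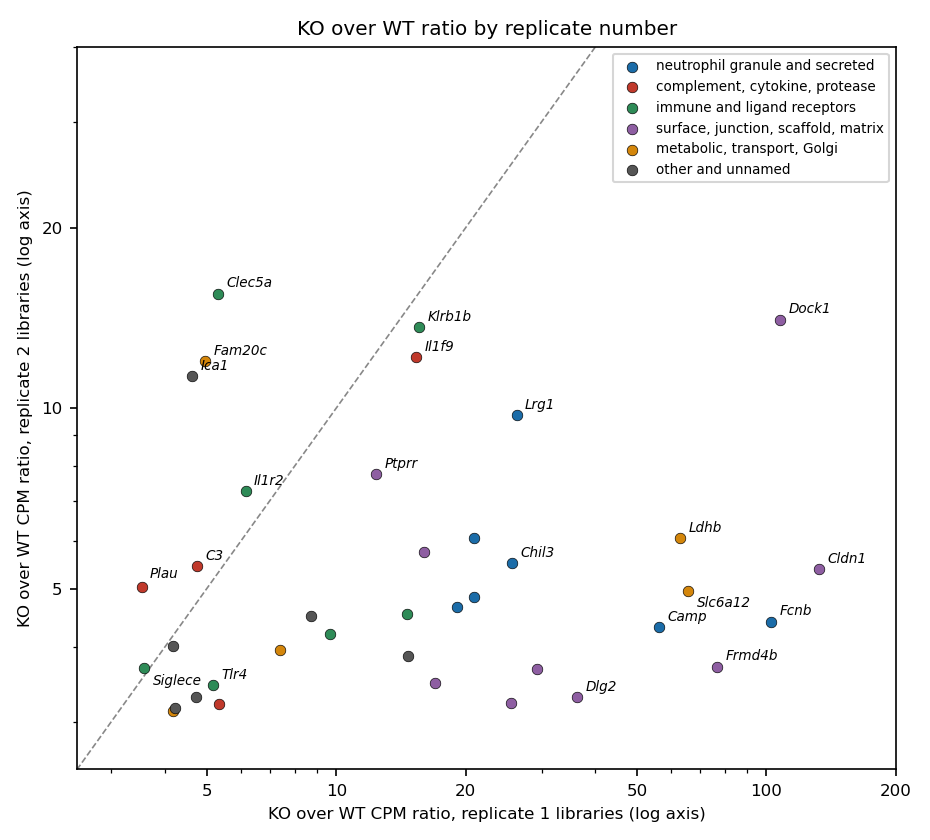
Ratio of KO to WT CPM for the libraries numbered 1 (horizontal, logarithmic axis) and for those numbered 2 (vertical, logarithmic axis), 1 point per gene, with the 38 genes that had counts in both WT libraries. The ratio was larger in replicate 1 for 31 of them, and WT replicate 2 was above WT replicate 1 in 30 of the 39 genes. The share over all genes is not given, and same-numbered libraries are not established pairs. Ratios in replicate 1 that rest on few WT counts, such as that of Cldn1 with 1 count, are imprecise.

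The numbers in the labels do not establish that same-numbered libraries are pairs, and they serve here only to name libraries. WT replicate 2 was above WT replicate 1 in 30 of the 39 genes, below it in 8, and tied with it at 0 in Tmem178. Over all tested genes, WT replicate 2 was above in 45.3%. It was at least 3-fold above in 16 of the 39, while 4.84% of the 12623 genes kept by the low-count filter showed such a gap. In a further 16 members the WT libraries lay within 1.5-fold. The KO libraries had no common order, with replicate 1 higher in 21 genes and replicate 2 higher in 18, and 20 of the 39 were within 1.5-fold. Replicate 2 was the higher KO library in 42.9% of tested genes. Of the 30 tested genes of secondary and tertiary granules and mature neutrophils outside the set, 19 had WT replicate 2 at least 3-fold above WT replicate 1, a further 7 had it above by less, and 4 had it below. Examples chosen after their values were seen are Ngp, which had 448 and 1708 CPM in WT, against 3976 and 7416 CPM in KO, and Ltf, which encodes lactoferrin and had 7.83 and 56.6 CPM in WT, against 132 and 369.6 CPM in KO. Lcn2, which encodes lipocalin 2, had a smaller gap, at 119 and 255 CPM in WT, against 469 and 1369.7 CPM in KO, and Trem3 ran the other way, at 70.8 and 47.1 CPM in WT, against 211 and 135 CPM in KO. Their part in the spread of the members was not tested.

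**Figure D3:**
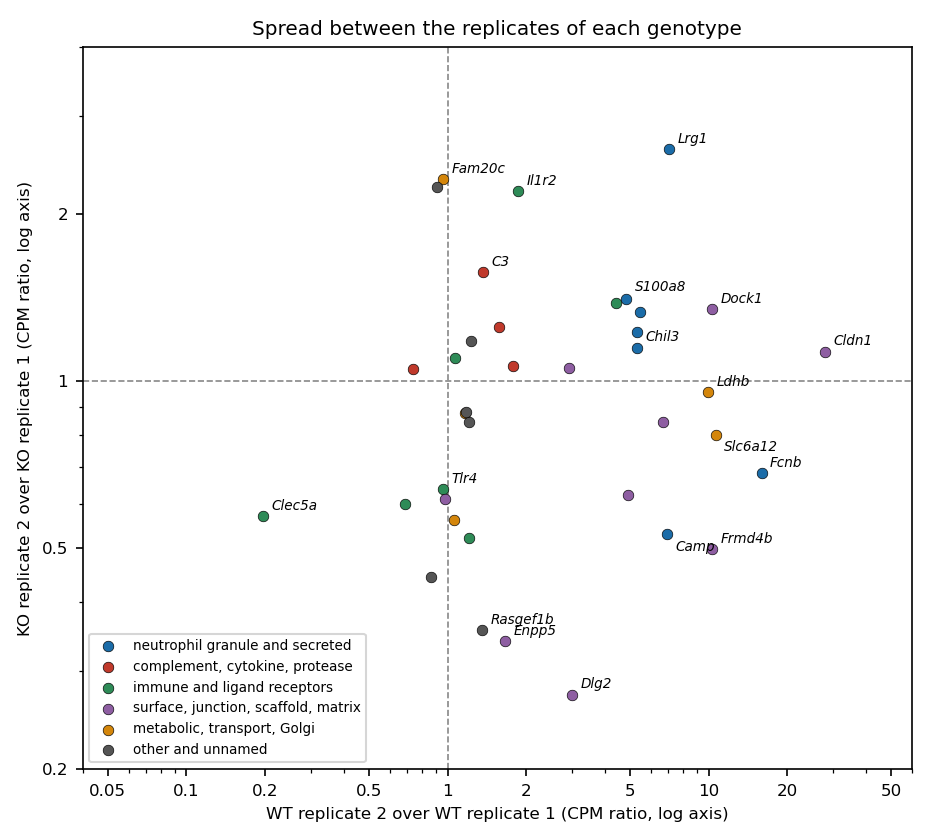
Spread between replicates, as the CPM ratio of replicate 2 to replicate 1 in WT (horizontal) and in KO (vertical), on logarithmic axes. Each point is 1 of the 38 genes with counts in both WT libraries, and dashed lines mark a ratio of 1. The neutrophil granule genes lie at WT ratios above 3, whereas no gene has KO libraries more than 4-fold apart, the limit set by the selection.

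Leaving out WT replicate 1 made the linear fold change more than 1.5 times smaller in 17 genes, among them all 7 neutrophil granule genes. Leaving out WT replicate 2 made it more than 1.5 times larger in the same 17. The 17 were Camp, Chil1, Chil3, Cldn1, Dlg2, Dock1, Dpp4, Fcnb, Filip1, Frmd4b, Ldhb, Lrg1, Olfml2b, P2ry13, Plbd1, S100a8 and Slc6a12. Clec5a moved the opposite way. Without KO replicate 1 the fold was more than 1.5 times smaller in 0610040J01Rik, Dlg2, Enpp5 and Rasgef1b, and without KO replicate 2 it was so in Fam20c, Ica1, Il1r2 and Lrg1 and larger in Dlg2. Log2 fold changes ranged over these omissions from 2.42 to 4.88 in Chil3, from 2.67 to 5.51 in Camp, from 2.48 to 6.52 in Fcnb and from 2.43 to 4.76 in S100a8. The Lrg1 value was 2.82 without WT replicate 1, 5.69 without WT replicate 2 and 2.71 without KO replicate 2. The range was 1.80 to 2.04 in Siglece, 1.87 to 2.42 in Tlr4, 3.05 to 3.66 in Ptprr and 2.02 to 2.77 in C3. The sign held in each of the 39 genes under each omission, a direction that the selection itself fixes.

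In the fit across all genes, edgeR's quasi-likelihood test with Benjamini-Hochberg adjustment called 0 of the 39 genes at an adjusted p of 0.05. It called 0 of all 12623 genes (0% in the higher direction), with 968 below an unadjusted p of 0.05. DESeq2's Wald test called 209 of 13422 genes higher in KO (1.56%) and 143 lower (1.07%), and 34 of the 39 were among the 209. The other 5 were Cldn1, Fcnb, Camp, Lrg1 and Filip1. Since these calls rest on the contrast that chose the genes, they are not further support. How many of the 39 DESeq2 called changed with the library left out, as did its calls over all genes. The members' median log2 fold change by edgeR was 3.05, beside −0.0043 over all genes tested. It was 2.49 or 3.71 without WT replicate 1 or 2, and 2.99 or 3.02 without KO replicate 1 or 2.

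The 3-fold limit cut a continuous range. Just inside it were Cfb, Clec5a and Cds1, whose lower KO value was 3.01, 3.04 and 3.13 times the higher WT value. Just outside were Smim6 at 2.96, Lilrb4a at 2.94 and Zfp697 at 2.93. Lilrb4a, which encodes an inhibitory myeloid receptor, had 1.81 and 7.05 CPM in WT, against 21.3 and 20.7 CPM in KO, a pattern close to that of members.

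Pathway lists placed the set beside related genes. For comparison with the list counts, DESeq2 called 1.56% of all genes higher and 1.07% lower. A count of 1 in a list is not read as a difference from those shares. DESeq2 counts are out of the genes given an adjusted p, whose number can differ from the number tested by edgeR. Of 36 tested genes of secondary and tertiary granules and mature neutrophils, 6 were members (Camp, Chil3, Lrg1, S100a8, Fcnb and Il1r2). The 30 others all had a log2 fold change above 0, with a median of 1.61, beside −0.0043 over all genes tested. DESeq2 called 7 of the 30 higher and none lower at an adjusted p of 0.05: Ngp, Lcn2, Wfdc21, S100a9, Trem1, Trem3 and Orm1, named here after their values were seen. edgeR called 0 of them, and in it Ngp, which encodes neutrophilic granule protein, had a log2 fold change of 2.47 (SE 0.75). Of the 7, Wfdc21 and Trem1 had passed the limits and were omitted from the set by name. Their calls thus rest on the values that chose the set. Of the whole list, DESeq2 called 10 with all libraries. The whole list's median of 1.78 became 3.76 without WT replicate 2, and its value without WT replicate 1 is not given here. In 19 of the 30 others, WT replicate 2 was at least 3-fold above WT replicate 1. The size of the median thus depends on which WT library is kept. The list was not uniform. Mmp9, a gelatinase of tertiary granules, had 26.5 and 257 CPM in WT, against 26.3 and 263 CPM in KO, so its replicates lay far apart and its groups had similar values.

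Primary granule genes had 11 of 15 tested members of the list above 0, with a median log2 fold change of 0.47, and none was among the 39. DESeq2 called 5 higher (Mpo, Elane, Prtn3, Cst7 and Lyz2), and edgeR 0. Mpo (myeloperoxidase) had a log2 fold change of 4.18 (SE 0.37) while Elane (neutrophil elastase) showed 3.02 (SE 0.48), and both were omitted from the set by name. Without WT replicate 1 the list median was 0.75, and without WT replicate 2 it was 0.85.

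Monocyte and macrophage genes had a median log2 fold change of 0.86 with 25 of 34 above 0 and no member in the set. DESeq2 called 6 of 40 higher, among them F13a1, which had passed the limits and was omitted from the set by name. The list median was 0.25 without KO replicate 1. Its 2 genes of highest mean CPM, Ly6c2, a surface antigen of inflammatory monocytes, and Psap, the precursor of lysosomal saposins, had edgeR log2 fold changes of −0.18 (SE 0.42) and 0.06 (SE 0.21). Pattern recognition genes outside the set had a median of 0.20 with 23 of 31 above 0. DESeq2 called 1 of 32 of them higher, Tlr2, beside 1.56% over all genes. With the members, the list's DESeq2 count was 3. Clec12a, an inhibitory lectin receptor, and Tyrobp, the adaptor through which Clec5a signals, had values of 0.14 (SE 0.25) and 0.17 (SE 0.24).

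Receptors for cytokines and chemokines outside the set had a median of 0.47 with 22 of 31 above 0. DESeq2 called 3 of 34 higher (Csf1r, Il6ra and Tnfrsf1b). With Il1r2 the count was 4. Ifngr1, an interferon gamma receptor chain, and Csf2ra, the GM-CSF receptor chain, showed values of −0.03 (SE 0.28) and −0.30 (SE 0.29). Myeloid transcription factors had a median of 0.65 with 27 of 38 above 0, and 3 called higher by DESeq2 (Cebpd, Id2 and Bcl11a). That median was 0.028 without KO replicate 2, the library with the most immediate early RNA, and it was 0.34 without WT replicate 1. Of the 3 called, Id2 and Bcl11a were omitted from the set by name, and Bcl11a had passed the limits. The 2 genes of highest mean CPM were Jun, with a log2 fold change of 1.30 (SE 1.04) and Fos, with 1.10 (SE 1.06).

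Interferon response genes had a median of 0.17 with 21 of 34 above 0, and DESeq2 called 2 of 35 higher (Ifitm1 and Ifitm3). Omitting KO replicate 1 took the median to 0.0020, and omitting WT replicate 1 took it to 0.32. Ifitm3 had passed the limits and was omitted from the set by name. Ly6e, an interferon-inducible surface protein, had −0.58 (SE 0.29). Integrins and adhesion molecules had a median of −0.26 with 10 of 29 above 0. Of 30, DESeq2 called 1 higher (Vcam1) and 1 lower (Icam1), beside 1.56% and 1.07% over all genes. The median ranged from −0.47 without KO replicate 2 to −0.093 without KO replicate 1. Vcam1 had also passed the limits before its omission by name. The integrin chains Itgam and Itgb2 had 0.24 (SE 0.38) and −0.0005 (SE 0.36). HOXA-MEIS1 and self-renewal genes had a median of −0.28 with 4 of 23 above 0, which turned to 0.024 without KO replicate 1. It was −0.77 when KO replicate 2 was omitted and −0.17 when WT replicate 2 was. DESeq2 called 1 of them higher (Prdm16), a call lost when either KO library was left out. Myb and Lmo2, transcription regulators of progenitors, had 0.04 (SE 0.22) and −0.02 (SE 0.26). edgeR called 0 genes in each of the 9 lists. The lists were drawn up with earlier results of these data known, so their counts are descriptions. DESeq2's list counts also changed with the library left out, as did its calls over all genes.

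**Figure D4:**
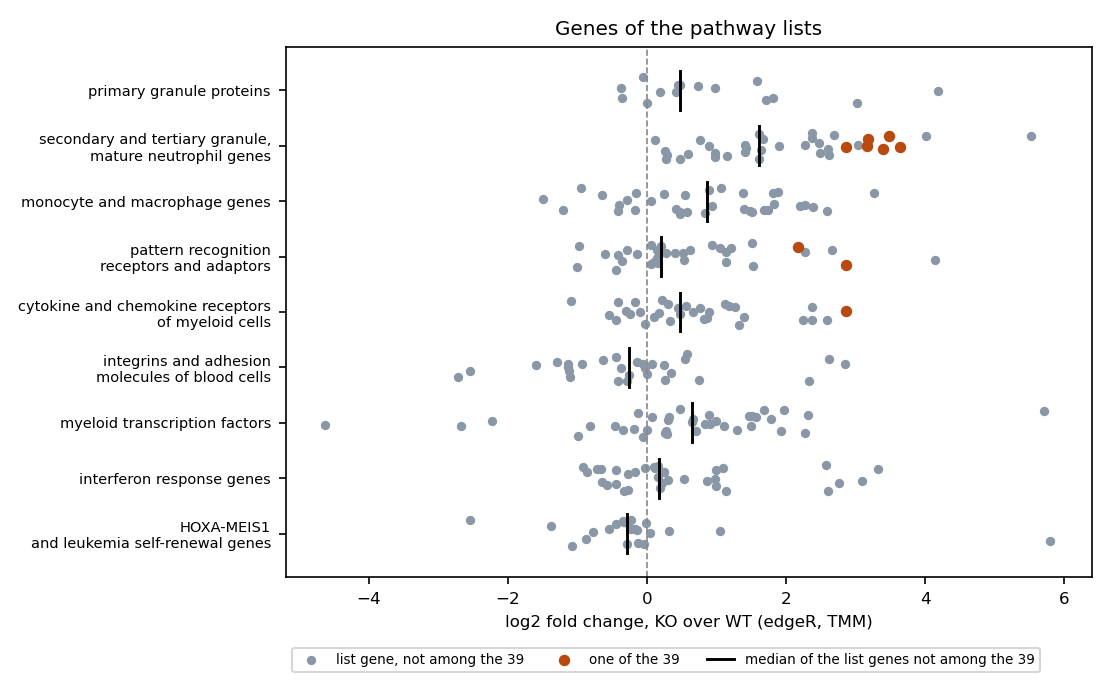
Log2 fold change of KO over WT by edgeR for each tested gene of 9 pathway lists, with members of the 39-gene set marked and the list medians shown. The 36 genes of secondary and tertiary granules and mature neutrophils all lie above 0, and the other lists spread on both sides.

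Markers of other cell types were low or uneven. B cell markers summed to 29.4 and 20.7 CPM in WT, against 40.7 and 26.5 CPM in KO, and erythroid markers to 213 and 139 CPM in WT, against 190 and 295 CPM in KO, with 6 of 16 at 0 in every library, the globins among them. Megakaryocyte markers summed to 58.2 to 168 CPM, mast cell and basophil markers to 94.8 to 278 CPM and eosinophil markers to 63.5 to 241 CPM, each highest in WT replicate 2. Stromal and endothelial markers summed to 374 and 326 CPM in WT, against 217 and 246 CPM in KO, with 5 of 17 at 0 throughout. For none of these sums did both KO values exceed both WT values.

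Positions were found for all 39 genes in RefSeq GRCm38.p6, on 13 chromosomes, with up to 7 on any 1 (chromosome 6). No 2 members were neighbours among genes with a count, and the closest pair was Lrg1 and C3 on chromosome 17, with 1082021 bases between them. Another gene counted in the files overlapped 7 members (0610040J01Rik, C3, Cfb, Dlg2, Il1r2, P2ry13 and Siglece), and reads in the overlaps could not be assigned by strand from what is given here.

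A promoter window of 300 bases, from 250 before to 50 after the start, was matched for 34 of the 39 genes. The start used was at the edge of the gene's RefSeq span in 19 and inside the span in 15, by more than 1000 bases in 4 (Dlg2, Il1r2, Siglece and Usp2), so a window need not be at the gene's outermost start. Each word was searched on both strands in 1 window per gene. The Ikaros family word TGGGAA was found in 12 of 34 (35.3%, 95% Wilson interval 21.5 to 52.1%), beside 25.5% of 27025 windows of all genes and 23.0% of the 9599 windows of genes tested. Both background shares lay inside that interval. The 12 were Camp, Chil1, Chil3, Dock1, Dpp4, Fam20c, Filip1, Il1f9, Lrg1, Olfml2b, Plbd1 and Slc6a12.

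The C/EBP word TTGCNNAA was in 2 of 34 (5.88%, interval 1.63 to 19.1%, against 8.14% of tested genes), those of C3 and Fcnb shown above. GAGGAAGT was in 1 (2.94%, interval 0.521 to 14.9%, against 3.28%), that of S100a8. TGTGGT, a RUNX word, was in 4 (11.8%, interval 4.67 to 26.6%, against 12.8%), and the share of tested genes lay inside each of these intervals. TATAAA was in 7 (20.6%, interval 10.3 to 36.8%, against 6.92% of tested genes and 14.2% of all genes), so the background share lay outside the interval for tested genes and inside it for all genes. Of those 7, S100a8 had the word 30 bases before the start, where a TATA box is usually found, Chil3 had it across the start, and Lrg1 and C3 after it. Median GC content was 55.3% in the members' windows, 60.7% in those of tested genes and 52.7% in all.

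**Figure D5:**
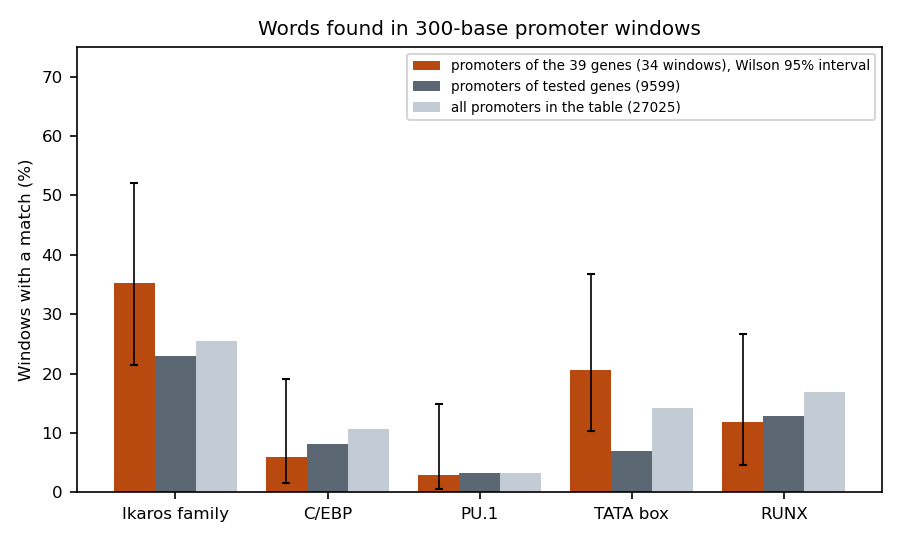
Share of promoter windows that hold each of 5 searched words, in percent, for the 34 matched genes of the set (with 95% Wilson intervals), the 9599 tested genes and all 27025 windows. The background shares lie within the set's intervals except for TATAAA among tested genes.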

How the data were processed

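Raw counts per gene symbol in 4 RNA-seq libraries were analysed in the form deposited by the authors. Build mm10 and the programs Bowtie2 2.2.5, HTSeq, MACS2, Picard and STAR 2.3.0 are named, per the submitters' processing notes, without their roles. The strand setting and annotation were not given in the sources used here, so reads of overlapping or near-identical genes may be shared. Per the labels, RNA came from TRIzol and RNeasy extraction and went into TruSeq RNA libraries. The 4 chromatin accessibility samples were not analysed here.

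The 5 rows of reads assigned to no gene, 69.4% to 72.4% of each library's counts, were left out. CPM for the selection used column sums, at which 3 counts equal 0.156 to 0.187 CPM, and CPM is not scaled by gene length. In R 4.3.3, genes were filtered with filterByExpr of edgeR 4.0.16, scaled by TMM and compared between KO and WT with the quasi-likelihood test, without covariates. An SE is the size of the log2 fold change over the square root of F. DESeq2 1.42.0, limma 3.58.1 (voom), other scalings, no filter, a replicate block and the omission of each library were alternatives. The scripts were tested on simulated data. The members and all gene lists were chosen with earlier results of these data known, and roles were assigned after the values were seen. By the rule for named genes, every member is named, and each list gives its called genes or, with none called by edgeR, its 2 genes of highest mean CPM, of which 1 is not reported here. Other genes named were chosen after their values were seen. Positions and promoter windows are from RefSeq GRCm38.p6, 1 window per gene, the furthest upstream of those in the promoter table, which need not hold the outermost start. Wilson intervals cover counting error only.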

Additional observations from a re-analysis of the deposited data

How the results depend on the processing

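The size of the gene set depended on the limits and on each library. It held 101 genes with a 2-fold limit, 16 with a 4-fold limit, 61 with a minimum of 2 CPM, and between 67 (without WT replicate 1) and 205 (without KO replicate 2) when 1 library was left out. TMM-scaled CPM gave 45 genes, 38 of them shared, with Cfb the member lost. The number of genes called by edgeR was 0 with TMM, with another scaling and with library sizes alone, 4 without the low-count filter, and between 0 (with a KO library left out) and 156 (without WT replicate 2) when 1 was left out, while DESeq2 called 352. With 1 library left out of a group, the lone sample is assumed to vary like the others. With the replicate block it was 11, of which 8 were higher and 3 lower. Same-numbered libraries had a correlation of their deviations of 0.19, and with 2 pairs this shows no more than a shared number. Members had 312 log2 fold changes by edgeR under the other scalings, no filter, the replicate block and each omission. Of these, 279 stayed within the spread between replicates, 33 moved beyond it and 0 changed sign. That direction is fixed by the selection itself. The median of the HOXA-MEIS1 list turned to 0.024 without KO replicate 1 and was −0.77 without KO replicate 2. With tested genes as the comparison in place of all genes, the share of windows was 23.0% for TGGGAA, 8.14% for TTGCNNAA, 6.92% for TATAAA and 12.8% for TGTGGT. Depth limits the members with few WT counts, such as Tmem178.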

Other observations

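The limit on the KO libraries kept 6 genes out that passed every other limit: 3830403N18Rik, Cd74, H2-Aa, H2-Eb1, Hspa1b and Lipg. Cd74, H2-Aa and H2-Eb1 encode the invariant chain and chains of the class II antigen-presenting molecules. Cd74 stood at 2.54 and 8.02 CPM in WT, against 829 and 55.4 CPM in KO. H2-Aa stood at 1.76 and 5.66 CPM in WT, against 400.5 and 22.4 CPM in KO, and H2-Eb1 at 1.56 and 2.62 CPM in WT, against 285 and 15.0 CPM in KO. These 3 genes were therefore 14.9 to 18.9 times higher in KO replicate 1 than in KO replicate 2. Hspa1b, a heat shock protein with a near-identical copy, and Lipg, a secreted lipase, had the opposite order: Hspa1b had 0.415 and 1.55 CPM in WT, against 6.31 and 69.9 CPM in KO, and Lipg had 0.259 and 0.588 CPM in WT, against 7.0 and 59.3 CPM in KO. With TMM-scaled CPM the set would have gained Ahr, which encodes the aryl hydrocarbon receptor, at 2.28 and 2.51 CPM in WT, against 7.75 and 7.27 CPM in KO, and also Lilrb4a, Myl10, Ptger2, Tg and Zfp697, among others.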
